A study of Mus musculus with 2 samples.

Results

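Of the 2652 sites at which POU3F1 was called on chromatin of the embryonic mouse retina, 614 lay more than 500 kb from the transcription start site (TSS) of at least 1 gene to which they had been assigned. They were chosen from the authors' deposited gene table, which lists 4427 gene-peak pairs of 2323 genes with the signed distance of each peak from the gene's TSS. Pairs with a distance above 500 kb numbered 689 (15.6% of all pairs) and involved 402 genes (17.3% of the genes listed). Of these pairs, 676, of 391 genes, could be placed on their intervals in the peak list, and the 13 others, of 11 genes, entered only the counts of pairs, genes and distances. The 614 peaks made up 24.6% of the 2499 peaks with a placed gene. Distance chose these peaks, so their distances are a description.

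CUT&RUN, in which a nuclease tethered by an antibody cuts free the DNA that a protein occupies for sequencing, was done on wild-type retina of the CD1 strain at embryonic day 14. There was 1 library with an antibody to POU3F1 and 1 with rabbit IgG, the nonspecific control, and both came from the same genotype, strain, tissue and age. The number of embryos is not given in the sources used here. With 1 library there is no replicate check, a peak is not a replicate, and the intervals given below cover counting error only. The IgG library entered no comparison, and the sequencing depth of both libraries is unknown.

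POU3F1, also called OCT6, is a POU-domain transcription factor that binds the octamer motif and acts in the differentiation of neurons and of myelinating glia. Genes of development often border gene deserts, long stretches without protein-coding genes that can hold enhancers acting over great distances on a gene at their edge. GREAT, the tool behind the deposited table, gives a peak to the nearest gene on each side as long as the gene's domain reaches it. A desert peak can thus carry 1 name from each edge. Such a name states position, not control.

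The stretches of sequence that could be read at these peaks were those around annotated starts, since a far assigned TSS does not preclude a closer start of a noncoding RNA or of a transcript that GREAT did not use. Of the 614 peaks, 15 overlapped 16 RefSeq start windows (250 bases before to 50 after a start, build GRCm38.p6) of 15 genes, 12 of them long noncoding RNA (lncRNA) genes and 3 protein-coding. The 6 windows shown belong to lncRNA genes. They were chosen to hold both windows with an octamer match at a distinct site and 1 that lies wholly in a strongly enriched peak (Gm31674). The others are 1 with the peak summit near the lncRNA start (BB218582) and the 2 at peaks with a single placed gene. Capitals mark the bases inside the POU3F1 peak.
6430590A10Rik: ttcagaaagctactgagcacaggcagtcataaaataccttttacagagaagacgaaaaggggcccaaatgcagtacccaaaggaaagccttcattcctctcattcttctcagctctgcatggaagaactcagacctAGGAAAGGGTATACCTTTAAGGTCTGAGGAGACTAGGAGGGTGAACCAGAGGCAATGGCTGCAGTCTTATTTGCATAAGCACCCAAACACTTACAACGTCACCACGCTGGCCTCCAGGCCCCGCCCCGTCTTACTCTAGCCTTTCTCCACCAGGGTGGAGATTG
Gm34196: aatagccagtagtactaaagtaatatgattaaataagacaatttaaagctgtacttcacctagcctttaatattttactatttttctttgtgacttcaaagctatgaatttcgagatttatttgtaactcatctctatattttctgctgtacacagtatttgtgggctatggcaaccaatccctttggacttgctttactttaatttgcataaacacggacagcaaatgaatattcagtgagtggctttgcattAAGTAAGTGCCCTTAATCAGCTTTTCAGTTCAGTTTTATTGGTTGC
Gm31674: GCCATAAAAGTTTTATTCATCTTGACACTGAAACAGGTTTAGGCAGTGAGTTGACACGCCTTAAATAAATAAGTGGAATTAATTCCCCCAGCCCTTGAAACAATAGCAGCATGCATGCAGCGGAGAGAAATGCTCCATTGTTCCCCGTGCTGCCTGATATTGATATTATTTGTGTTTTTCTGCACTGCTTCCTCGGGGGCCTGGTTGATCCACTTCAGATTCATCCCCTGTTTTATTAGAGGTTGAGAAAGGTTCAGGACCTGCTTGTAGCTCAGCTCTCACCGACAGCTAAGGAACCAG
BB218582: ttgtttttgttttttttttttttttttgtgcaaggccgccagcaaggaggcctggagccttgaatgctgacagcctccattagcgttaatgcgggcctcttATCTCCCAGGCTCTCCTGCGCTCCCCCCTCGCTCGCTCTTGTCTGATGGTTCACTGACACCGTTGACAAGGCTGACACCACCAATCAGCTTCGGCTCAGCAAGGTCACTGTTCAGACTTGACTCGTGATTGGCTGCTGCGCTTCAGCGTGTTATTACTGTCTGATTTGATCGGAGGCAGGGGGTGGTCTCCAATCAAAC
Gm52576: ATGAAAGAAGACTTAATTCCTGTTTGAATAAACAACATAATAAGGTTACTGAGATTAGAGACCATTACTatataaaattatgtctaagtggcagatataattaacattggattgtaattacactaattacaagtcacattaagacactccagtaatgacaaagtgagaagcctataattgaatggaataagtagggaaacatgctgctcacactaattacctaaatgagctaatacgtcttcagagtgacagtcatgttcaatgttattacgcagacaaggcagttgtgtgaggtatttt
4932412D23Rik: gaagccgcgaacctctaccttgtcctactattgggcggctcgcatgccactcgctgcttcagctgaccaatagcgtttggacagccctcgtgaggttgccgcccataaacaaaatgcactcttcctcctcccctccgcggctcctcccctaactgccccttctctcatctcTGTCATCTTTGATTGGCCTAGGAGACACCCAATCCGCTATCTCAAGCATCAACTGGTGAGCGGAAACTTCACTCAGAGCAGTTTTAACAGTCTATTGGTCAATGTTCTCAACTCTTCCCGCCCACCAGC

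The 6430590A10Rik window (chr10:103369206-103369505, minus strand) lies at a peak of 11.8-fold enrichment, 775145 bp upstream of Gm21293 and 1329 bp downstream of the TSS of the amino acid transporter gene Slc6a15. Its octamer, read as ATTTGCAT at bases 205 to 212, falls within the 164 bases covered by the peak and ends 38 bases before the lncRNA start. The Gm34196 window (chr13:84906118-84906417, minus strand) carries the same letters at bases 204 to 211, outside the 46 bases that the 17.2-fold peak covers. That peak was assigned to Ccnh, 283544 bp away, and to Tmem161b, 683564 bp away. The whole Gm31674 window (chr11:18747830-18748129, plus strand) lies in a 17.8-fold peak, 270746 bp downstream of the TSS of the homeobox gene Meis1 and 794348 bp upstream of Etaa1. BB218582 (chr2:106650315-106650614, minus strand) has 199 bases in a 7.86-fold peak whose summit is 18 bp from the lncRNA start, in the pairs Mpped2, at 42908 bp, and Dnajc24, at 646812 bp. Gm52576 (chr2:47834114-47834413, minus strand) has 69 bases in a 5.04-fold peak whose single gene, the activin receptor gene Acvr2a, starts 979656 bp away. 4932412D23Rik (chr16:42875538-42875837, minus strand) has 129 bases in a 2.89-fold peak with the single gene Gap43, a growth-cone protein gene 534819 bp away. Searched on both strands, the octamer ATGCAAAT was in 3 of the 16 windows (18.8%, exact 95% interval 4.05 to 45.6%), against 570 of 32851 RefSeq windows (1.74%). Of those 3, 2 are overlapping windows of Gm34196 with the same site, so by gene the octamer was in 2 of 15 (13.3%, 1.66 to 40.5%). The 16 windows also had a lower median GC content, 45.8% against 52.7%, and the part of base composition in these shares was not tested. The homeodomain core TAATTA was in 3 of the 16 and in 1738 of all windows (5.29%). It lay inside the peak in Pdzrn4, at bases 111 to 116. It was outside the peak in Gm52576 and in the overlapping Gm34196 window that is not shown. These are matches of letters in windows chosen for a gene start, and they describe no other far peak. The 3 coding starts were alternative starts of Fbxw7, Pdzrn4 and Ptprg, at peaks of 5.89-, 5.26- and 4.35-fold. In Ptprg, a receptor tyrosine phosphatase gene, the alternative start lies at a peak 636493 bp downstream of the TSS that GREAT used.

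The far pairs thinned with distance up to the 1 Mb at which GREAT stops. The median distance was 693521 bp, with quartiles of 587748 and 835618 bp and a maximum of 996832 bp. By successive 100 kb, 200, 153, 118, 121 and 97 pairs were listed from 500 kb to 1 Mb, after 1657, 840, 535, 378 and 327 over the first 500 kb. Peaks lay upstream of the TSS in 318 of the 689 pairs (46.2%, exact 95% interval 42.4 to 50.0%) and downstream in 371, and upstream in 42.1% (40.5 to 43.7%) of the 3738 other pairs. At the threshold the values ran on: the last 3 pairs outside were Jarid2 (498846 bp, 8.84-fold), Tle3 (499135 bp, 20.6-fold) and Foxp2 (499227 bp, 6.39-fold). The first 3 inside were Clint1 (500382 bp, 14.7-fold), Tle4 (501484 bp, 15.7-fold) and Dpyd (501627 bp, 14.3-fold).

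For most far peaks, the other assigned gene was nearer. It lay at 500 kb or less for 408 of the 614 peaks (66.4%, exact 95% interval 62.6 to 70.2%). For 62 peaks (10.1%, 7.83 to 12.8%) both genes were beyond 500 kb, and 144 peaks (23.5%, 20.2 to 27.0%) had no other placed gene. The label of a gene desert thus holds by the nearest assigned TSS for 206 of the 614 peaks, and by the nearest protein-coding TSS of RefSeq for 173. Counted by pair, the far gene was the more distant in 470 pairs, the nearer of both in 62 and the only placed one in 144. The nearer gene of the 408 peaks stood at a median of 173587 bp (quartiles 81612 and 289822 bp), and the far gene was a median of 4.08 times as distant. None of these peaks was within 1 kb of the nearer gene, 7 were within 5 kb, 62 (15.2%) within 50 kb and 126 (30.9%) within 100 kb.

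**Figure D1:**
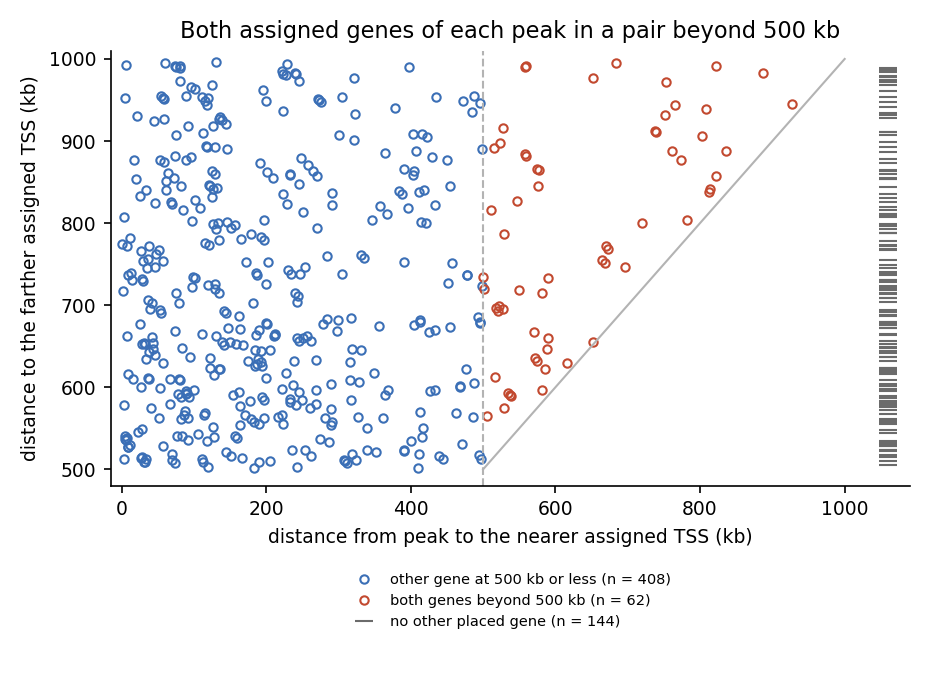
Distance in kb from each far peak to its nearer assigned TSS (horizontal) against that to its farther assigned TSS (vertical). Blue circles are the 408 peaks with an assigned gene at 500 kb or less, red circles the 62 with both genes farther off, and grey dashes at the right the 144 with no other placed gene. The dashed line marks 500 kb and the solid line equal distances; the blue points spread over the whole range to its left.

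The 62 peaks between 2 far genes lay in long gaps: their nearer gene was at a median of 583410 bp and their farther one at 802242 bp, in gaps between the 2 starts of 1420200 bp at the median. The 144 single peaks lay at a median of 706502 bp from their gene. A protein-coding TSS of RefSeq was within 500 kb of 24 of the 144, so for these the placed pair alone overstates the isolation. Whether that TSS belongs to a gene whose deposited pair could not be placed was not examined. On the Y chromosome, 5 single peaks were listed at 972182 to 988947 bp from Gm21996 while a RefSeq coding TSS stood 8251 to 25016 bp from them.

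Gene bodies held fewer of the peaks without a nearer gene. The classes are set by distance to assigned starts, which by itself bears on lying in a gene body, so these shares are a description. Outside any protein-coding or lncRNA gene body were 50 of the 62 peaks with 2 far genes (80.6%, exact 95% interval 68.6 to 89.6%) and 98 of the 144 single peaks (68.1%, 59.8 to 75.6%), but 169 of the 408 peaks with a nearer gene (41.4%, 36.6 to 46.4%). Over all 614, the share was 51.6% (47.6 to 55.6%), against 35.5% (33.4 to 37.8%) of the 1885 placed peaks with no far pair. Inside a protein-coding gene lay 227 far peaks (37.0%) and inside a lncRNA gene 84 (13.7%), against 54.6% and 13.4% of the other placed peaks. Of the 227, 140 were in the body of the nearer gene of the pair, 31 in that of a coding gene that was not assigned, and 56 (9.12% of all 614) in the body of the far gene itself, which then spans more than 500 kb. In 47 of those 56 pairs the peak was downstream of the TSS, inside a long gene such as Lrrc4c, Slit3, Dpyd or Trpm3, and in 9 it was upstream of the TSS used but within a longer annotated transcript, as at Tenm3.

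The median enrichment of far peaks was close to that of the others, with overlapping intervals. The authors' fold over local background had a median of 6.30 (95% interval of the median 5.89 to 6.50; quartiles 4.91 and 8.61) over the 614 far peaks and of 6.39 (6.30 to 6.53) over the 1885 others. The median length was 366 bp against 343 bp, and the median summit pileup, the number of fragments stacked at the summit, 19 in both. Peaks of 10-fold or more numbered 109 of 614 (17.8%, exact 95% interval 14.8 to 21.0%), against 19.3% of the others. A q-value below 0.01 was met by 96.6% of the far peaks and 97.7% of the others. At the top of the range far peaks were scarcer than the others pooled. Of the far peaks, 16 reached 20-fold (2.61%, 1.50 to 4.20%), against 91 of the others (4.83%, 3.90 to 5.89%). At 50-fold it was 1 (0.163%), against 17 (0.902%). Peaks within 5 kb of an assigned TSS supplied 29 of the 91 and 12 of the 17. The others at 50 to 500 kb were closer to the far peaks, with 3.44% (2.46 to 4.68%) at 20-fold and 0.265% at 50-fold. The intervals of the far peaks and of the pooled others at 20-fold overlap, and the difference was not tested. The 206 peaks whose nearest assigned TSS was beyond 500 kb had a median of 6.41-fold and a maximum of 30.3-fold. The 290 peaks within 5 kb of a TSS, for comparison, had a median of 6.87-fold, and 25.9% of them reached 10-fold, against 18.9% of the 206. Across the 676 pairs, which share 1 library and in part the same peaks, fold and distance had a Spearman rho of -0.03. The median pileup of 19 sets the precision: 52.4% of the far peaks, and 52.6% of the others, rested on fewer than 20 fragments at the summit.

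**Figure D2:**
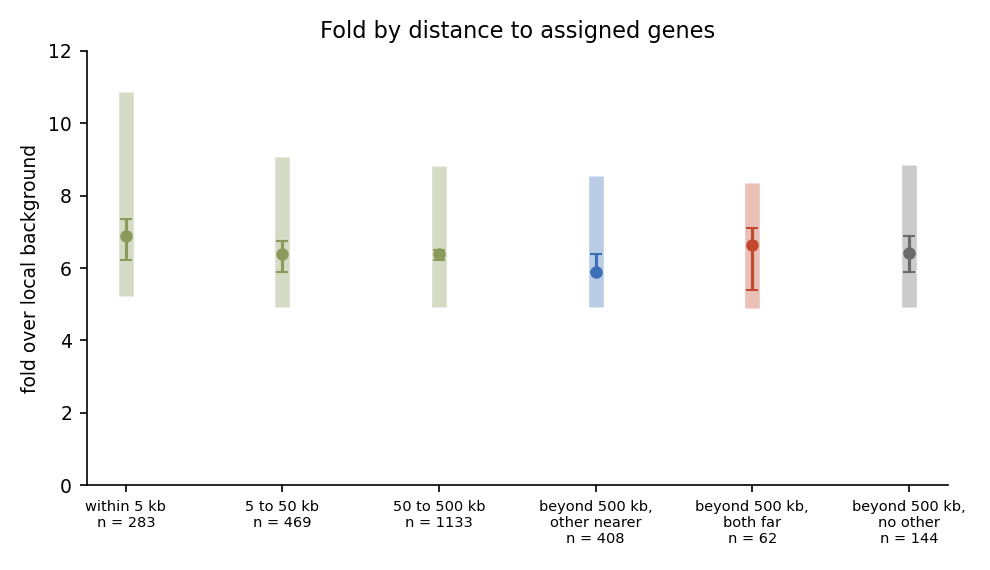
Fold over local background (vertical) of peaks with no pair beyond 500 kb, by distance to the nearest assigned TSS (green, 3 classes), and of far peaks with a nearer other gene (blue), 2 far genes (red) or no other placed gene (grey). Points are medians with 95% intervals, pale bars the quartiles, and n the number of peaks; the quartile ranges of all 6 classes overlap.

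Counted against the sequence available, deserts held fewer peaks per Mb than the genome as a whole, but not the fewest. Sequence more than 500 kb from every protein-coding TSS made up 11.6% of the autosomes and X and held 243 peaks (9.37%), or 0.803 peaks per Mb (exact Poisson 95% interval 0.705 to 0.910). Of these 243 peaks, 173 were far peaks and 70 had no placed gene. The densities were 1.41 (1.26 to 1.57) within 5 kb, 0.631 (0.581 to 0.684) at 5 to 50 kb and 1.25 (1.19 to 1.32) at 50 to 500 kb. Intervals of these 4 classes did not overlap, except that those within 5 kb and at 50 to 500 kb did. Assembly gaps and sequence to which reads cannot be mapped were counted as territory, and their part in the desert density was not tested. The chromosomes were uneven: desert density was 1.50 per Mb on chromosome 18 (interval 0.860 to 2.44, 16 peaks), 1.41 on chromosome 2 (0.893 to 2.11, 23 peaks) and 1.39 on chromosome 13 (0.716 to 2.42, 12 peaks, an interval that holds the overall 0.803), and 0.239 (interval 0.0962 to 0.493) on chromosome 1 (7 peaks in 29.3 Mb) and 0.117 (0.0142 to 0.422) on X (2 peaks in 17.1 Mb). Far peaks were most numerous on chromosomes 3 (52 of 210 listed peaks, 24.8%) and 13 (52 of 173, 30.1%). As a share of the listed peaks of each autosome and X, they were highest on chromosome 18 (37 of 106, 34.9%). The distance to the next peak was alike, with medians of 120918 bp for far peaks and 121069 bp for the others, and 24.4% against 24.5% had a neighbour within 20 kb.

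**Figure D3:**
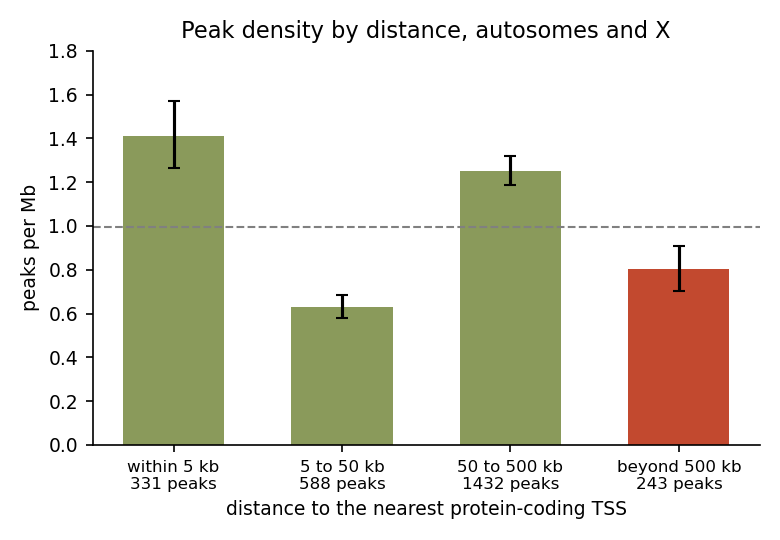
POU3F1 peaks per Mb of sequence (vertical) in 4 classes of distance to the nearest protein-coding TSS, on autosomes and X. Bars start at 0, error bars are exact Poisson 95% intervals and the dashed line is the density over all classes; the desert bar, at 0.803 per Mb, stands between that at 5 to 50 kb, 0.631, and that at 50 to 500 kb, 1.25.

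The strongest far peak was inside Epha3, an ephrin receptor gene of axon guidance: chr16:63808878-63810579 had 62.8-fold enrichment with a pileup of 163. It lay 54430 bp downstream of the Epha3 TSS and was also assigned to Pros1, the gene of anticoagulant protein S, 955421 bp away. The next, chr3:143789943-143790729 (37.0-fold, pileup 118), stood 414884 bp from Lmo4, a LIM-only cofactor gene, and 908332 bp from Pkn2. On X, 170019844-170022397 (36.3-fold, pileup 222) was 141498 bp from Mid1, a ubiquitin ligase gene, and 651524 bp from the melatonin synthesis gene Asmt. A 33.5-fold peak on chromosome 6 (51178009-51179142, pileup 256) lay 254095 bp from Nfe2l3 and 524136 bp from the neuropeptide gene Npvf. In each of these 4 the far gene was the only one of the pair beyond 500 kb.

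Among the 10 strongest, 7 had a nearer gene and 3 had a single gene, and none had 2 far genes. Between Mn1, a transcriptional coregulator gene, and the lens crystallin gene Cryba4, 2 of the 10 stood at opposite ends: chr5:112110357-112111019 (33.2-fold, inside the lncRNA gene Gm30032) was 141830 bp from Cryba4 and 693246 bp from Mn1, and chr5:111519312-111520052 (27.5-fold) was 102240 bp from Mn1 and 732836 bp from Cryba4. The single peaks were chr3:150503595-150504306 (30.3-fold), 933937 bp upstream of the adhesion receptor gene Adgrl4, chr8:49235934-49237011 (26.1-fold), 561782 bp upstream of the TSS used for the teneurin gene Tenm3 and inside its annotated body, and chr10:54939301-54939903 (25.4-fold), 863806 bp upstream of the mannosidase gene Man1a. The tenth, chr13:43936612-43937008 (24.9-fold), was 152035 bp from Cd83 and 794461 bp from Jarid2, a Polycomb cofactor gene.

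The far genes were many and mostly met once. Of the 402, 245 (60.9%) had 1 far pair, 96 had 2, 61 had 3 or more and 18 had 5 or more. Only far pairs were listed for 151 (37.6%), while 251 also had a nearer pair, 54 of them within 50 kb and 18 within 5 kb. Far pairs on both sides of the TSS were found for 19 genes. Far pairs could be placed for 391 genes. Of these, 138 were the nearest assigned gene in at least 1 of their own far pairs, and 253 in none. Far peaks at which the gene itself stood at 500 kb or less did not enter this count.

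Zfp608, a zinc finger gene of chromosome 18, had the most far pairs, 13 of its 28. They lay on both sides, 6 upstream at 557496 to 954391 bp and 7 downstream at 535070 to 996832 bp, with folds from 3.43 to 19.3. Zfp608 was the nearest assigned gene of 6 of them. Downstream, 4 of the 11 far peaks between Zfp608 and Csnk1g3, a casein kinase gene, were beyond 500 kb of both. The strongest of all 62 peaks with 2 far genes was among these, at chr18:54452537-54453282, with 19.3-fold enrichment, inside the lncRNA gene Redrum, 537271 bp from Zfp608 and 590796 bp from Csnk1g3. Upstream, 5 of the 7 far peaks between Zfp608 and Gramd3 were beyond 500 kb of both, the strongest of 12.2-fold at chr18:55758785-55759665.

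The other genes with most far pairs were mostly the more distant of both. Csnk1g3 had 8 far pairs of 11 and was the nearest gene in 1. Gm765 had 8 of 12, 605552 to 967739 bp upstream and 4.19- to 10.5-fold, and was nearest in none: these peaks were assigned also to the forkhead gene Foxp1, and 8 of the 9 far peaks of that stretch lay in a coding gene body. Asmt had 7 of 8, Pros1 6 of 7 and Etaa1 6 of 7, and none was the nearest gene in any of these far pairs. Mid1, Epha3 and Meis1 stood nearer at these peaks. Gramd3 had 6 of 10 and was nearest in 2, with a TSS, as the distances place it, inside its annotated body, 44646 bp from the annotated start. Dach1, a retinal determination gene, had 6 of 16, on both sides, at 3.93- to 10.7-fold, and was nearest in none. Of the 10 genes tied at 5 far pairs, Tenm3 and Jarid2 had the highest folds. All 5 of Tenm3, at 561782 to 953752 bp upstream and 5.40- to 26.1-fold, had no other placed gene, as had all 5 of Gm21996, and Klhl1 too was the nearest gene of its 5. Jarid2 had 5 of 9, 630626 to 800831 bp upstream, and was nearest in none.

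**Figure D4:**
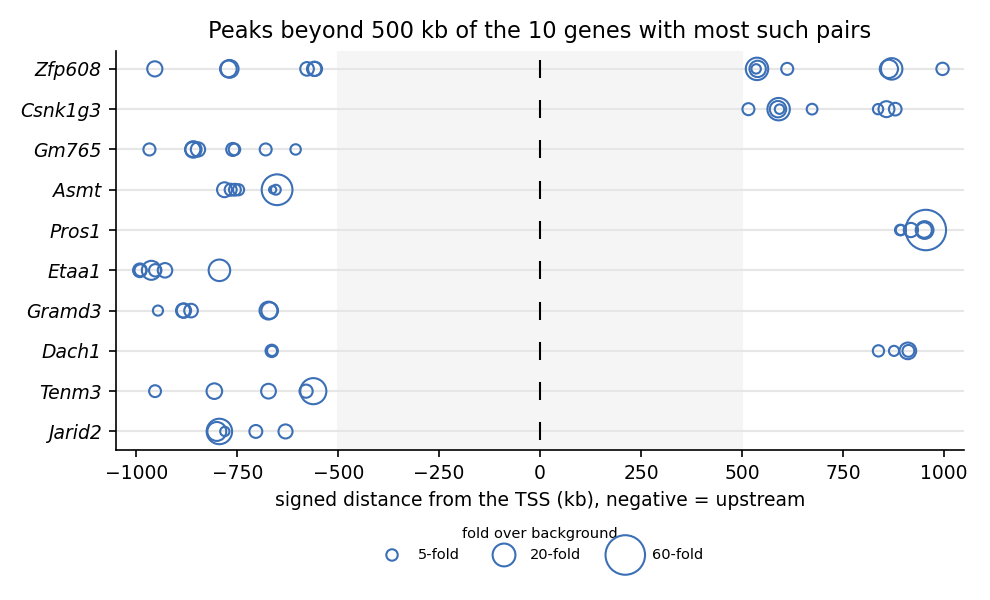
Signed distance in kb from the TSS (horizontal, negative upstream) of the placed peaks beyond 500 kb of the 10 genes with most such pairs (10 genes tie at 5 pairs, and the 2 of highest fold among them are drawn), with circle area proportional to fold over background. The shaded band, within 500 kb of the TSS, holds peaks that are not drawn; Zfp608 and Dach1 have circles on both sides, the other 8 genes on 1 side.

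By the genes assigned, far peaks fell into 331 stretches, which need not be deserts in the strict sense and of which 190 held 1 and 60 held 3 or more, with 262 peaks (42.7%) in those 60. The stretch of Csnk1g3 and Zfp608 held 11 over 748821 bp. That of Foxp1 and Gm765 held 9, and that of Foxp2, the forkhead gene known for its part in vocal learning, and Mdfic held 8, of which 7 lay in a coding gene body. Epha3 and Pros1 had 7, 6 of them in a coding body, as had 6 further pairs of genes, Asmt and Mid1 (4 in a coding body), Cryba4 and Mn1 (4 in lncRNA genes), Ccnh and Tmem161b, Etaa1 and Meis1 (5 in a coding body), Gramd3 and Zfp608, and Isl1 and Itga1.

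The stretch beside Isl1 bears on the retina, where the LIM homeobox gene Isl1 acts in ganglion cell differentiation. Between Isl1 and the integrin gene Itga1, whose starts are 1207720 bp apart, 7 far peaks of 3.36- to 9.33-fold were called and no gene body held any of them. Isl1 had 5 far pairs, all downstream, at 622078 bp (8.51-fold, pileup 25), 632500 bp (4.72-fold, pileup 11), 635735 bp (7.10-fold, pileup 28), 907139 bp (9.33-fold, pileup 18) and 980196 bp (3.64-fold, pileup 12). The first 3 were close neighbours, and both genes were beyond 500 kb of them, Itga1 being the nearer at 571990 to 585647 bp. Another retinal ganglion cell gene, Pou4f1, stood 111283 bp from a 19.7-fold peak whose far gene, at 513020 bp, was the endothelin receptor gene Ednrb.

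At the Hoxd cluster, 1 peak carried many names. The interval chr2:74450083-74450703 (15.4-fold, pileup 62) was placed with 7 genes, Lnpk 128555 bp away, Atp5g3, a gene of mitochondrial ATP synthase, 539068 bp away, and Hoxd10 to Hoxd13 and Evx2 through the curated domain that GREAT gives this cluster.

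The 5 peaks farthest from any assigned gene were 2 at Gm21996 on Y (985965 and 988947 bp, 8.22- and 9.13-fold), which have a closer RefSeq start as stated above, and 1 each at the amylase gene Amy2a5 (987520 bp, 4.42-fold), Mms22l (984238 bp, 4.57-fold, inside the lncRNA gene Gm31085) and Acvr2a (979656 bp, 5.04-fold). Summit pileups at the last 3 were 8, 20 and 17. These 3 folds are below the median of the far peaks, whereas the 30.3-fold peak of Adgrl4 stood nearly as far away, at 933937 bp.

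Of 20953 protein-coding genes with a curated RefSeq transcript, 386 (1.84%) had a far pair, and of the 1745 that border a gap of more than 500 kb to the next coding TSS, 378 (21.7%) had one, and a few genes with a far pair border no such gap. Among transcription factors of development (297 genes by their symbols), 31 had a far pair, which is 31 of the 95 that border such a gap (32.6%, exact 95% interval 23.4 to 43.0%). This set also takes in corepressor genes such as Tle1 and Tle4. Among genes grouped by symbol as neural adhesion and synaptic organisers, the count was 31 of 80 (38.8%, 28.1 to 50.3%). That group follows symbols alone, so members such as Adgrl4, Cdh5 and Cdh26 need not be neural. Among axon guidance ligands and receptors it was 13 of 27 (48.1%, 28.7 to 68.1%). Ion channels and transmitter receptors had 5 of 53 (9.43%, 3.13 to 20.7%) and secreted growth factors 4 of 17 (23.5%, 6.81 to 49.9%). Of the bordering cytosolic ribosomal protein genes 2 of 6 had one, and of the olfactory receptors 1 of 4. The shares were not tested against each other, and the length of the gaps, which differs between genes, was not allowed for.

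**Figure D5:**
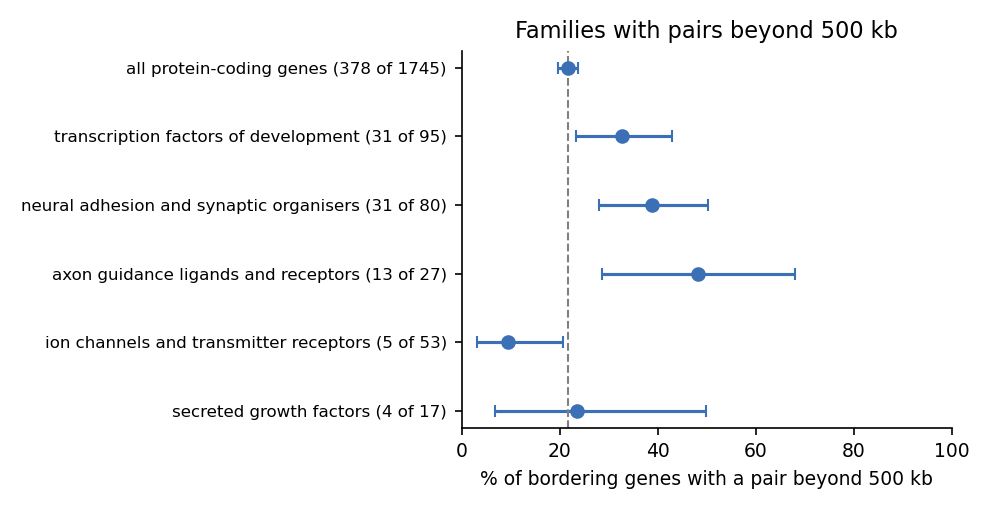
Share in percent (horizontal) of the genes bordering a gap of more than 500 kb that had a pair beyond 500 kb, for all protein-coding genes and 5 families, with exact binomial 95% intervals; the counts stand beside each name. The dashed line is the share over all coding genes, 21.7%; the points for adhesion and guidance genes, 38.8% and 48.1%, lie above it and that for channels, 9.43%, below.

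The transcription factors held 71 of the placed pairs, at a median of 7.59-fold, against 6.29-fold over all coding genes with a far pair. Apart from Zfp608, the highest folds were at Nr2f1, an orphan nuclear receptor gene (18.7-fold, 738109 bp upstream, the only placed gene), Tshz3, a teashirt zinc finger gene (18.7-fold, 952789 bp downstream but inside Zfp536, whose TSS was 119055 bp away), and the Groucho corepressor gene Tle1 (16.7-fold, 565951 bp upstream, with Aldoart1 at 85826 bp). The equal folds at Nr2f1 and Tshz3 go with an equal pileup of 37. Of the 30 members with a placed far pair, 10 were the nearest gene in at least 1 of their own far pairs. For 1, Foxp2, the strongest far peak lay in the gene's own body. Among known retinal progenitor genes, Sox2 had its strongest far peak 546071 bp upstream (6.39-fold), where Dnajc19 was 23022 bp away. The paralogue of POU3F1, Pou3f2, had a single far pair, 854041 bp upstream (7.08-fold), with no other placed gene. Sox9, a regulator of retinal progenitors and Müller glia, had 1 at 641346 bp upstream (5.88-fold), also alone.

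Of the 31 adhesion genes, 19 were the nearest assigned gene in at least 1 of their own far pairs. Among the 383 coding genes with a placed far pair, 135 were. The strongest far pair lay in the gene's own long body for 12 of the 31, beside 37 of the 383. The adhesion genes held 43 pairs at a median of 6.39-fold. After Adgrl4 and Tenm3 the highest folds were at Adgrl2, a latrophilin gene of synapse formation (16.6-fold, 809942 bp upstream), and Lrrc4c, the gene of netrin-G ligand 1 (16.0-fold, 718920 bp downstream, inside Lrrc4c). Both had no other placed gene at that peak. The cadherin genes Cdh11 and Cdh5 shared 1 weak peak (2.40-fold), 528900 and 787083 bp away.

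The guidance genes held 17 placed pairs at a median of 5.40-fold. In at least 1 of their own far pairs, 4 of the 13 members were the nearest gene. Slit3, the gene of a repellent ligand of Robo receptors, had the highest fold, 11.8, at 542497 bp downstream inside its own body. Epha3 itself had a far pair of 7.86-fold, 563019 bp upstream, with Csnka2ip at 51971 bp, and one of 6.69-fold, 512270 bp downstream. The strongest peak at Epha5 was of 6.89-fold, 761074 bp upstream, with Cenpc1 at 887588 bp, and that of the netrin receptor gene Dcc was of 6.74-fold, 838711 bp upstream, with Mex3c at 383264 bp.

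In the smaller families single peaks carried the values. The potassium channel gene Kcnh7 had a 19.9-fold peak 779311 bp upstream, at which the nearer gene was Fign at 134423 bp. Kcnj3, of another potassium channel, had 3 far pairs, the strongest of 9.79-fold, and the glutamate receptor gene Grm7 had 2, of 9.53-fold inside Grm7 and of 8.61-fold at 976807 bp. Among growth factor genes, Nrg3 (6.16-fold), Fgf9 (4.88-fold), Inhba (4.79-fold) and Tgfb2 (4.43-fold) each had 1. The ribosomal protein gene Rps29 had 1 single peak at 825340 bp (6.55-fold), and the strongest of the 3 of Rplp1 (5.89-fold) lay inside Tle3, 11758 bp from its TSS. All 5 far pairs of Olfr1505 were shared with Tle4, the strongest of 10.2-fold inside Tle4. In none of these pairs was the receptor gene the nearer of both.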

How the data were processed

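The deposited files come from 1 POU3F1 library; the authors' peak list has 2652 intervals, and the deposited gene table was used with it. Per the submitters' processing notes, Bowtie2, MACS2 and deepTools (no versions named) and build mm10 were used. In the peak list the authors deposited a score (from the −log10 q-value), the fold over local background, the −log10 p-value and the −log10 q-value of each summit, in the MACS2 narrow-peak layout, at an FDR of 0.05; whether the IgG library served as control is not given in the sources used here. Distances in the gene table are in bp, and it was made with GREAT 4.0.4 per the file headers (basal domain 5000 bp upstream and 1000 bp downstream, extension to 1 Mb, curated domains).

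Each gene was placed where a TSS within 20000 bp of its annotated body made all its distances meet peak midpoints to 1 bp on the annotated strand; a gene with 1 distance also had to lie within 5000 bp of its annotated TSS. This placed 4251 pairs (96.0%), with far TSSs at a median of 17 bp from annotated starts. Summit pileups were recovered from the fold and p-value under the Poisson model of MACS2. Shares have exact (Clopper-Pearson) binomial and densities exact Poisson 95% intervals. No test was run, because there is 1 library. RefSeq genes, TSSs and start windows are of GRCm38.p6. Python 3.11.15, pandas 2.3.3, numpy 2.4.6 and scipy 1.17.1 were used.

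Named are the 10 genes with most far pairs (ties by the highest fold), both genes of the 10 strongest far peaks and of the 5 farthest, 4 members per family by fold, 3 pairs on each side of the threshold, and the genes of the 5 stretches with most far peaks (1 gene that this rule names is not reported here); other names (Isl1, Pou4f1, Sox2, Sox9, Pou3f2, Cdh11, Cdh5, Hoxd, the start windows and examples of long genes) were chosen after their values were seen. Members, families and lists were chosen with earlier results of these data known. Families are sets of symbols and not curated lists. Alternatives tried were other distances, stricter peaks, other definitions of the nearer gene, the summit for the midpoint, and autosomes alone.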

Additional observations from a re-analysis of the deposited data

How the results depend on the processing

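With distances above 400 kb, 62.1% of peaks had a nearer gene and desert density was 0.921 peaks per Mb; above 750 kb, 265 pairs of 179 genes on 250 peaks were left, 72.4% with a nearer gene. Peaks of at least 5-fold gave a median fold of 7.37, a length of 397 bp, a pileup of 21 and 0.568 peaks per Mb, as the choice itself removes weak peaks. Only peaks whose nearest assigned TSS was beyond 500 kb left 268 pairs of 170 genes on 206 peaks. The share with a nearer gene depended most on what counts as one: it was 99.8% for any RefSeq gene end within 500 kb and 80.0% for a protein-coding gene end. Another 27 recomputed values, among them all those for a q-value below 0.01, the summit and autosomes alone, moved by less than their spread or, for counts, by less than 1.5 times. Shares of bordering genes with a far pair moved most above 750 kb, where that of all coding genes was 9.68%. They were 11.6% for transcription factors, 17.5% for adhesion, 18.5% for guidance and 0% for olfactory receptors. The bordering genes stayed those of gaps above 500 kb at every distance. A larger distance could therefore only lower these shares and a smaller one only raise them. Peaks of at least 5-fold gave 5.88% for growth factors and 17.2% of all coding genes, and distances above 400 kb gave 28.5% of all coding genes. The other 24 such shares stayed within their intervals. A single library of unknown depth limits every value. No paired analysis was possible because there is 1 library of each antibody and no test was run.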
